A study of Mus musculus with 38 samples.

Results

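The interferon-stimulated genes (ISGs) described here are 43 genes that cells switch on when interferon binds its receptor. They were taken as a list of names, and all 43 were found among the 35976 genes of the FPKM table of 17 bulk RNA-seq libraries and among the 37108 genes of the table of 8 libraries. Among the 20695 genes of the scRNA-seq data 42 of them were found, and Mx2 was not analysed there. By role the list holds 4 transcription factors, 10 sensors of foreign nucleic acid, 15 antiviral effectors, 7 genes of ubiquitin-like conjugation and ADP-ribosylation, 2 secreted proteins and 5 other induced genes.

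Type I interferons bind a receptor made of IFNAR1 and IFNAR2, whose kinases are JAK1 and TYK2. Their signal reaches a complex with STAT2 and IRF9 that binds the interferon-stimulated response element (ISRE) in front of many ISGs. Sensors of viral RNA and DNA in the cell start interferon production, and many sensors and factors of the pathway are themselves ISGs, so the response can feed itself. Pluripotent cells are known for a weak interferon response compared with fibroblasts.

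The study followed mouse embryonic fibroblasts (MEFs) of E13.5 embryos, carrying an Oct4-GFP reporter, that were infected with virus carrying transcription factors and then grown in the chemically defined medium iCD3. JGES cells received Jdp2, Glis1, Esrrb and Sall4, JGE cells received these without Sall4, JGEO cells received Oct4 in its place, and JGESO cells received Sall4 and Oct4. JGES bulk RNA was measured at day 0 and at days 1, 3, 5 and 7 with and without BMP4 (10 ng/ml), and the other 3 sets at day 7 with and without BMP4. In a separate experiment MEFs received SALL4-WT alone, or SALL4-delN12 alone, which lacks the stretch at the N terminus that recruits the NuRD complex, without BMP4 for 1, 5, 9 and 11 days. The ATAC-seq lists cover MEFs and both SALL4 forms at those 4 days, the CUT&Tag lists of day 6 cover SALL4 and H3K27ac for both forms, and scRNA-seq covers JGES cells at day 7 with and without BMP4. All cells of the RNA libraries were exposed to virus, and a MEF library without virus was not analysed here.

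Each condition was measured in 1 sample, and differences are therefore given with no test. A difference is given as log2(FPKM + 1) of one library minus that of another. A gene was counted as higher or lower when this difference reached 1, in genes that reached 1 FPKM in one or both libraries, and the share of all such genes is printed where the count of members of a comparison is first given. For a gene that reached 1 FPKM in one library alone, this minimum fixes the direction. Without replicates the spread between cultures is unknown, and in bulk samples fewer cells of a type and less RNA per cell cannot be told apart. The level of Sall4 was 549, 491, 518 and 290.3 FPKM in SALL4-WT at days 1, 5, 9 and 11. In SALL4-delN12 it was 809, 623, 971 and 428 FPKM, higher at each day, so the form and the level of Sall4 cannot be told apart. Sall4 was at 190.0 to 273 FPKM in JGES at day 7, against 2.09 and 6.23 FPKM in JGE. It was at 28.9 and 30.3 FPKM in JGEO, which received no Sall4, and at 174 and 213 FPKM in JGESO. Pou5f1 (Oct4) was at 1569.9 and 1599 FPKM in JGEO and at 0 and 0.0970 FPKM in JGE. The summed level of 10 macrophage markers was 168 to 1029.6 FPKM in the SALL4 libraries, mostly from Lyz2, against 4.70 to 12.9 FPKM in the JGES libraries, while Ptprc, the marker of all blood cells, was at most 0.892 FPKM.

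ISRE windows are shown first because the ISRE is the element in front of many ISGs that the interferon signal reaches. Promoters of 33 members were found in the RefSeq table of GRCm38.p6, each covering 250 bases before to 50 bases after a start site. The ISRE was searched as GAAA, any 2 bases and GAAA again, on both strands with overlapping matches kept. It was in a promoter of 16 of these 33 members and of 3.99% of the 27025 genes in the table. In the bases before the start site the counts were 13 of 33 members and 3.46% of genes. The members with a match before the start site were Stat2, Oas1a, Oas1g, Oas3, Ifit1, Ifit3, Ifit3b, Gbp2, Gbp3, Rsad2, Bst2, Isg15 and Cxcl10. The letters TTCNNNGAA of the gamma-activated site were in 8 of 33 members and in 9.55% of genes. Windows of 30 bases on the strand of the gene are given for 8 of these 13 members, each of which is named in a comparison of expression, with the match in capitals.
Isg15, chr4:156200871-156200900, minus strand: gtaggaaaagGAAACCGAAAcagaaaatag
Ifit1, chr19:34640794-34640823, plus strand: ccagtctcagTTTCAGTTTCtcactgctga
Ifit3, chr19:34583397-34583426, plus strand: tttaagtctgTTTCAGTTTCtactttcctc
Ifit3b, chr19:34607793-34607822, plus strand: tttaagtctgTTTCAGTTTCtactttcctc
Cxcl10, chr5:92349083-92349112, minus strand: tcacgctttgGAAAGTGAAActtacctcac
Oas1a, chr5:120907526-120907555, minus strand: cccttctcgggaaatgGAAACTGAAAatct
Rsad2, chr12:26456553-26456582, minus strand: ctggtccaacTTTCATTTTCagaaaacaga
Gbp2, chr3:142620594-142620623, plus strand: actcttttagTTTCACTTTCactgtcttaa
The Isg15 match shown lies 72 to 63 bases before the start site and is the middle one of 3 that overlap. The Oas1a match shown lies 14 to 5 bases before the start site and overlaps another one 20 to 11 bases before it. The windows of Ifit3 and Ifit3b are identical, and reads of these near-identical copies, like those of Oas1a and Oas1g, could have been divided between them in the counting. A match of letters is a description of the promoter and not a binding site.

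Many members lie side by side in the genome. Ifit2, Ifit3, Ifit3b and Ifit1 lie within chr19:34550694-34650009 and Oas2, Oas3, Oas1g and Oas1a within chr5:120730333-120907521 (mm10, GENCODE vM21). Parp14, Dtx3l and Parp9 are neighbours on chromosome 16, Rsad2 and Cmpk2 on chromosome 12, Gbp3 and Gbp2 on chromosome 3, and Oasl2 and Oasl1 on chromosome 5.

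The SALL4-WT library of day 1 carried the highest ISG levels of the 17 libraries. The median FPKM of the 43 members was 24.9, 5.50, 3.38 and 8.77 in SALL4-WT at days 1, 5, 9 and 11. In SALL4-delN12 it was 2.56, 2.72, 5.95 and 8.95 at the same days. The 2 forms thus ran different courses, with SALL4-WT high first and low at day 9, and SALL4-delN12 low until day 5 and higher later. In JGES without BMP4 the median was 1.93, 3.64, 1.27, 1.07 and 0.906 at days 0, 1, 3, 5 and 7. With BMP4 it was 4.01, 1.58, 2.37 and 1.98 at days 1, 3, 5 and 7. Of the 43 members, 33 were highest in SALL4-WT at day 1, 3 in SALL4-delN12 at day 11, 2 in SALL4-WT at day 11, 2 in JGES at day 1 without BMP4, and 1 each in 3 other libraries. Of the 17937 genes at 1 FPKM or more in any library, 6.93% were highest in SALL4-WT at day 1, 4.03% in SALL4-delN12 at day 11, 5.59% in SALL4-WT at day 11 and 5.41% in JGES at day 1 without BMP4. All 43 members were at an FPKM of 1 or more in SALL4-WT at day 1, against 19 in JGES at day 7 without BMP4, where 7 were listed at 0.

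**Figure D1:**
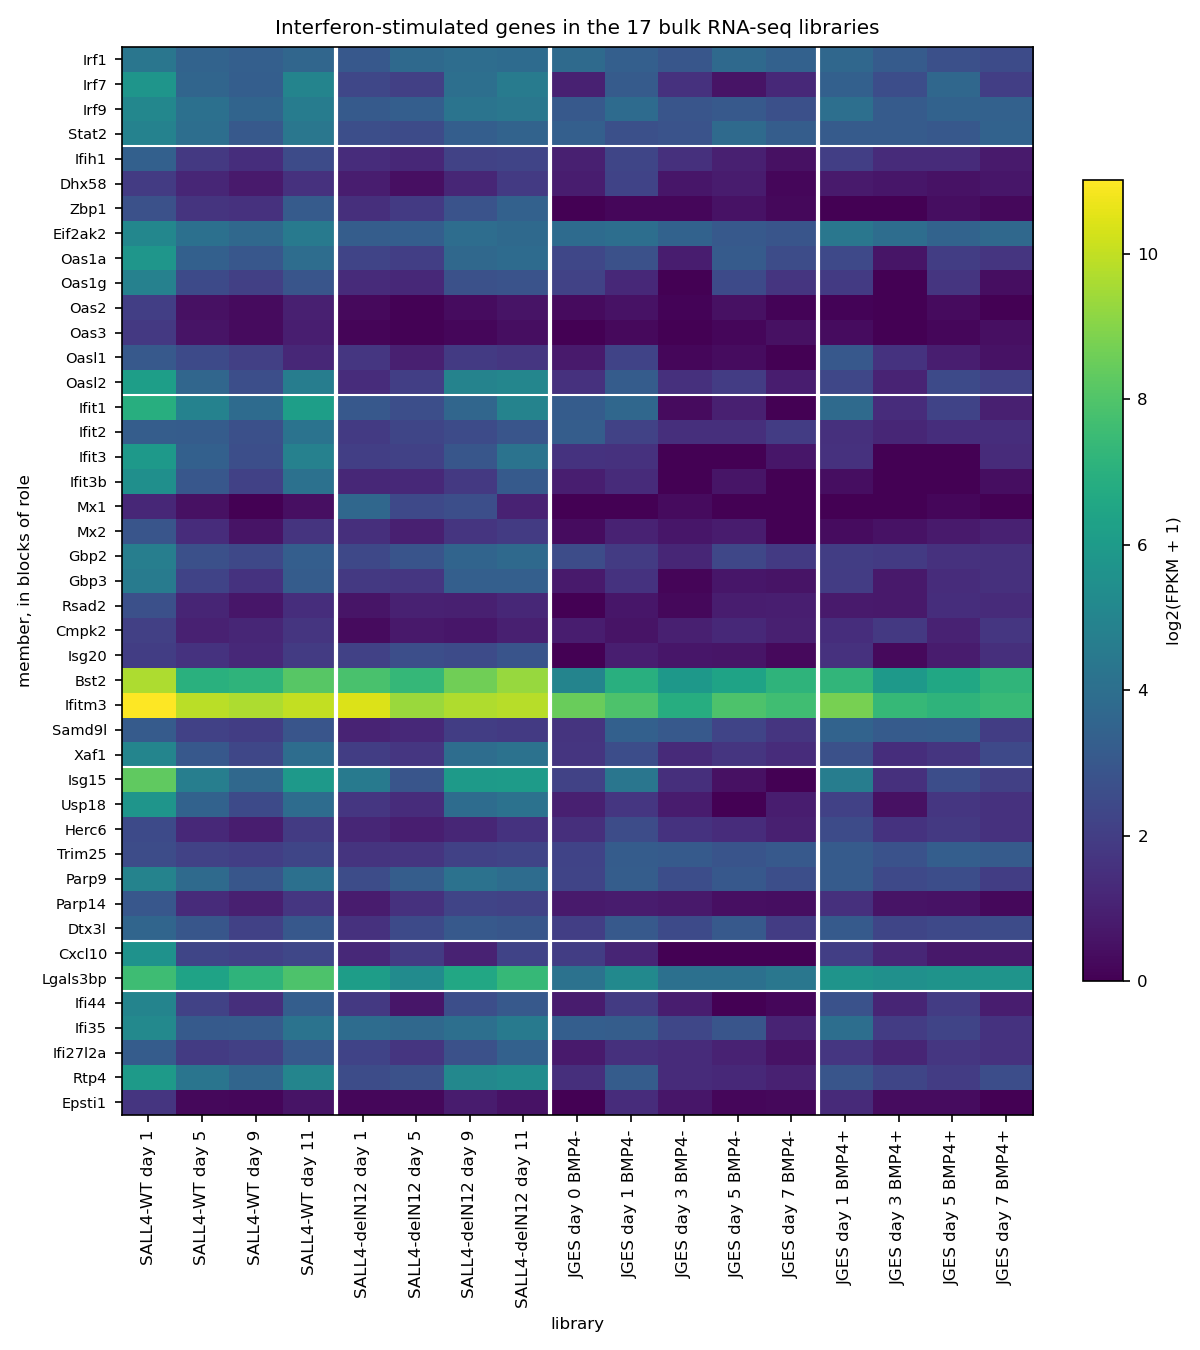
Level of each of the 43 members (rows, in blocks of role) in the 17 bulk RNA-seq libraries (columns) as log2(FPKM + 1), 1 library per column. The SALL4-WT day 1 column is the brightest for 33 of the 43 rows, and the JGES columns from day 3 on are dark except for Ifitm3, Bst2 and a few others.

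Isg15, a ubiquitin-like protein that is joined to other proteins, was at 319.9, 25.3, 12 and 58.8 FPKM in SALL4-WT at days 1, 5, 9 and 11. In SALL4-delN12 it was at 22.0, 6.42, 62.8 and 64.5 FPKM. SALL4-WT was thus the higher form at days 1 and 5 and the lower one at day 9. Ifit1, which binds viral RNA that lacks the host cap, was at 118, 28.3, 13.6 and 70.1 FPKM in SALL4-WT and at 7.28, 5.21, 11.5 and 29.7 FPKM in SALL4-delN12, so SALL4-WT was higher at all 4 days. Irf7, the transcription factor that drives interferon genes, was at 52.6, 11.2, 8.73 and 30.0 FPKM in SALL4-WT. In SALL4-delN12 Irf7 was at 4.12, 3.24, 15.3 and 22.9 FPKM, lower at days 1, 5 and 11 and higher at day 9. Cxcl10, a chemokine that attracts T cells, was at 48.0, 3.94, 3.39 and 4.08 FPKM in SALL4-WT and at 1.44, 2.72, 1.07 and 3.69 FPKM in SALL4-delN12. The day 1 value of Cxcl10 was 11.8 times the next highest of the 17 libraries, and that of Isg15 was 4.96 times the next highest. Mx1, a GTPase that blocks viruses, ran the other way, at 1.31, 0.421, 0.0195 and 0.384 FPKM in SALL4-WT and at 11.7, 4.35, 5.22 and 1.07 FPKM in SALL4-delN12.

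At day 1, 39 of the 43 members were lower in SALL4-delN12 than in SALL4-WT and 1, Mx1, was higher, where 5.63% of all genes tested were lower and 4.18% higher. The median difference of the members was -2.01. The largest differences were those of Oasl2 (-4.77), Cxcl10 (-4.33), Ifit3b (-4.23), Usp18 (-4.02), Ifit3 (-3.87), Ifit1 (-3.85), Isg15 (-3.81) and Oas1a (-3.53). Oasl2 is a relative of the 2'-5' oligoadenylate synthetases, and Usp18 removes Isg15 from proteins and restrains the receptor. All 4 transcription factors and all 10 sensors were lower, with role medians of -2.10 and -1.81. Among the effectors 12 of 15 were lower, among the conjugation genes 6 of 7, both secreted proteins, and all 5 of the other induced genes. The 3 members within the threshold were Isg20, an exonuclease, at 3.01 FPKM in SALL4-WT and 3.40 in SALL4-delN12, Trim25, at 4.87 and 2.14 FPKM, and Ifitm3, a membrane protein that stops virus entry, at 2057 and 1379.7 FPKM.

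At day 5, 40 members could be tested and 15 were lower in SALL4-delN12 and 2 higher, where 5.19% of all genes were lower and 4.67% higher. The median difference was -0.66. Ifit1 (-2.24), Usp18 (-2.06), Isg15 (-1.82), Ifit3b (-1.71), Oasl2 (-1.59), Irf7 (-1.53) and Oasl1 (-1.52) were lower, and Mx1 (1.91) was higher.

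At day 9 the direction was the opposite one for most members. Of 39 tested, 15 were higher in SALL4-delN12 and 1, Cxcl10, was lower, where 6.09% of all genes were higher and 5.75% lower, and the median difference was 0.72. Mx1 (2.61), Isg15 (2.30), Oasl2 (2.25), Gbp3 (1.74), Xaf1 (1.63), Rtp4 (1.55), Bst2 (1.46) and Usp18 (1.45) differed most. Gbp3 is a guanylate-binding GTPase, Rtp4 a chaperone of membrane receptors and Bst2, or tetherin, holds budding virus at the cell surface. Among the effectors 7 of 14 tested were higher, and among the conjugation genes 4 of 7.

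At day 11 the forms were close, with 1 member of 40 higher and 4 lower in SALL4-delN12, where 6.55% of all genes were higher and 6.58% lower, and a median difference of -0.09. Bst2 (1.16) was higher, and Ifit2 (-1.28), Ifit1 (-1.21), Samd9l (-1.04) and Ifit3b (-1.01) were lower. The share of members lower at day 11 is near that of all genes.

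Over the 4 days, with low members included, 33 members were lower in SALL4-delN12 at day 1 and higher at day 9. Of 14741 genes at 1 FPKM or more in any of these 8 libraries, 22.0% showed this pattern. Another 8 members were lower at both days, as were 30.5% of genes, and 2 (Mx1 and Isg20) were higher at both, as were 29.4%. Cmpk2, Cxcl10, Ifit1, Ifit2, Ifit3b, Lgals3bp and Oas3 were lower at all 4 days, as were 20.2% of genes, so these 7 of 43 are no more than the share of all genes. The median of the 43 differences was -2.01, -0.52, 0.65 and -0.09 at days 1, 5, 9 and 11. The summed macrophage markers were 391, 196, 168 and 188 FPKM in SALL4-WT and 367, 444, 496 and 1029.6 FPKM in SALL4-delN12, where C1qa was at 45.8 to 116 FPKM against 2.43 to 16.1 FPKM in SALL4-WT. Of 8 macrophage markers tested at day 1, 3 were higher and 2 lower in SALL4-delN12, and at day 9, 7 of 8 were higher and none lower. Fibroblast markers summed to 1015 FPKM in SALL4-WT at day 1 against 2232 FPKM in SALL4-delN12, and to 1696 to 2071 FPKM in the other SALL4 libraries, so the SALL4-WT library of day 1 stands apart in these too. Primitive endoderm (PrE) markers also moved, with sums of 13.5 to 22.7 FPKM in SALL4-WT over the 4 days. In SALL4-delN12 their sums were 14.8, 31.8, 92.6 and 304 FPKM, and 5 of 6 of them were higher at day 9. The part of these cell types in the differences was not tested.

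**Figure D2:**
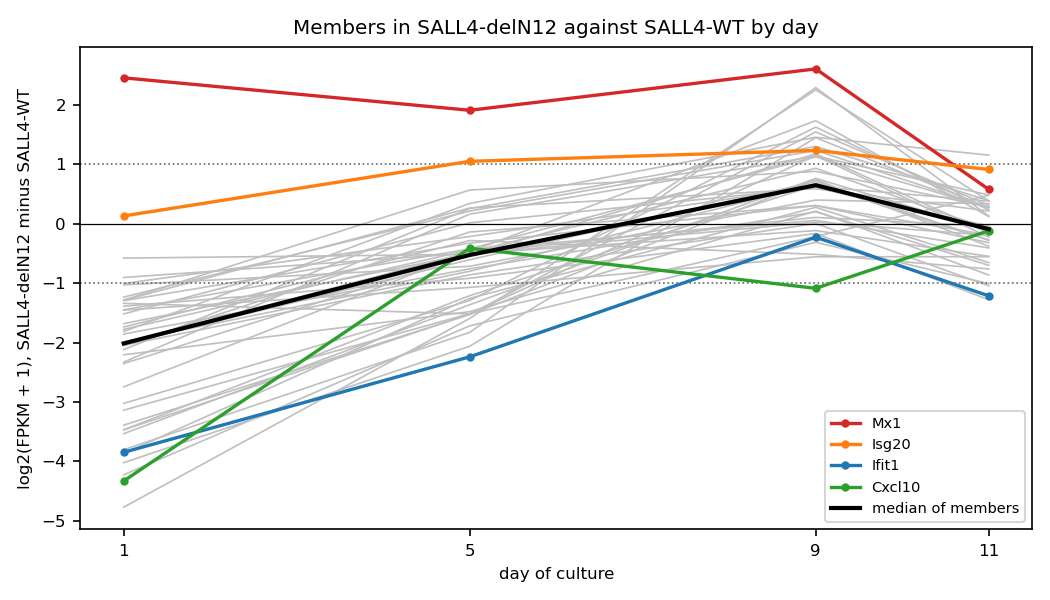
Difference in log2(FPKM + 1), SALL4-delN12 minus SALL4-WT (y), at days 1, 5, 9 and 11 (x), 1 line per member, with the median of the 43 members in black and dotted lines at the threshold of 1. The median goes from -2.01 at day 1 to 0.65 at day 9, while Mx1 stays above 0 and Ifit1 and Cxcl10 stay below it at all 4 days.

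Within SALL4-WT the fall came between days 1 and 5 and the return between days 9 and 11. From day 1 to day 5, 34 of 43 members were lower and none was higher, where 4.19% of all genes were lower and 6.27% higher, and the median difference was -1.52. Isg15 (-3.61) and Cxcl10 (-3.31) differed most. From day 5 to day 9, 2 of 39 members were lower, Isg15 (-1.02) and Ifit1 (-1.01), where 1.49% of all genes were lower and 1.77% higher. From day 9 to day 11, 21 of 39 were higher and none lower, where 2.61% of all genes were higher and 1.91% lower. The median difference was 1.02, with Ifit1 (2.29), Isg15 (2.21) and Ifit3 (2.19) at the top. Within SALL4-delN12 the rise came earlier. From day 1 to day 5, 4 of 38 members were lower, Isg15 (-1.63) and Mx1 (-1.25) among them, and none was higher, where 2.91% of all genes were lower and 6.16% higher. From day 5 to day 9, 14 of 39 were higher and none lower, where 1.85% of all genes were higher and 1.21% lower. Isg15 (3.10), Oasl2 (2.88) and Usp18 (2.51) differed most, and the median difference was 0.82. From day 9 to day 11, 4 of 39 were higher, Ifit1 (1.30) among them, and 1, Mx1 (-1.59), was lower, where 2.56% of all genes were higher and 2.23% lower. Neighbouring differences share a library.

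The rest of the pathway was read from 30 genes outside the members. At day 1, 25 of them could be tested, and 7 were lower and 2 higher in SALL4-delN12, with a median difference of -0.52, where 5.63% of all genes were lower and 4.18% higher. At day 5, 2 were lower and 1 higher, where 5.19% of all genes were lower and 4.67% higher. At day 9, 1 was lower and 3 were higher, with a median of -0.16, where 5.75% of all genes were lower and 6.09% higher, and at day 11 the counts were the same, where 6.58% were lower and 6.55% higher. The counts of days 5, 9 and 11 are small and are no result about the pathway. The RNA sensor gene Ddx58 (RIG-I) was at 36.4 FPKM in SALL4-WT and 8.33 FPKM in SALL4-delN12 at day 1, and the kinase gene Ikbke at 33.4 and 6.95 FPKM. The receptor gene Ifnar1 was at 46.5 and 13.2 FPKM at day 1, and Jak1 was at 46.1 to 70.4 FPKM over the 4 days of SALL4-WT against 19.6 to 26.8 FPKM in SALL4-delN12. Tmem173 (STING), the adaptor of the DNA sensor, went the other way, at 4.28 to 13.0 FPKM against 21.2 to 30.0 FPKM. These ranges do not overlap, as was so in this direction for 5.96% of all genes, and in the direction of Jak1 for 7.44%. The ligand genes were at or near 0. Ifna2 and Ifna4 were listed at 0 in all 17 libraries, Ifnb1 was at 0.150 FPKM in SALL4-WT at day 11 and at 0 elsewhere, and Ifng was at 0.280 FPKM in SALL4-delN12 at day 11 and at 0 elsewhere.

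Members moved together to different degrees. Over the 17 libraries, 27 of 43 members had a Pearson r of at least 0.8 with the mean of the other members, and 19 did without the SALL4-WT library of day 1. Of genes outside the list 0.357% reached this r with the mean of all members, and 49 of 12264 did without that library. Gbp3 (0.97), Irf9 (0.96) and Xaf1 (0.96) followed the mean most closely. Herc6 (0.38), Mx1 (0.29), Cmpk2 (0.26), Samd9l (0.14) and Trim25 (-0.37) did so least, and Trim25, a ubiquitin ligase that acts on RIG-I, was at 5.90 to 8.72 FPKM in JGES from day 1 on and at 2.14 to 4.87 FPKM in the SALL4 libraries. Among 12314 genes outside the list, those most like the member mean were LOC108168990 (0.973), Apol9b (0.929), Apol9a (0.919), Psmb8 (0.917), Parp12 (0.916), Parp10 (0.907), Igtp (0.894), Gbp2b (0.891), Slfn2 (0.884) and Gm19412 (0.880). Each of these 10 was highest in SALL4-WT at day 1, and 6 of the 10 stay among the 10 most alike without that library. These correlations describe 17 libraries of 2 experiments, which share the member mean.

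In JGES cells without BMP4 the members were highest at day 1. Against day 0, which all these comparisons share, 14 of 35 members were higher at day 1 and 1, Ifit2, was lower, where 11.8% of all genes were higher and 9.28% lower. Isg15 (2.13), Irf7 (2.12), Bst2 (1.97), Samd9l (1.74), Rtp4 (1.69), Oasl2 (1.63), Epsti1 (1.41) and Oasl1 (1.40) differed most, and the median was 0.80. At day 3, 8 of 27 members were lower than at day 0 and 1, Samd9l (1.40), was higher, where 10.5% of all genes were lower and 16.4% higher. Ifit1 (-2.86), Oas1g (-2.19), Cxcl10 (-2.02), Ifit2 (-1.78), Ifitm3 (-1.64), Ifit3 (-1.59) and Oas1a (-1.43) were lower. At day 5, 5 of 27 were lower, Ifit1 (-2.23), Cxcl10 (-2.02), Ifit2 (-1.79), Isg15 (-1.68) and Ifit3 (-1.59), and 2 were higher, Bst2 (1.41) and Dtx3l (1.02), where 10.0% of all genes were lower and 20.2% higher. At day 7, 5 of 25 were lower, Ifit1 (-3.19), Ifi35 (-2.22), Isg15 (-2.19), Cxcl10 (-2.02) and Ifit2 (-1.32), and 1, Bst2 (2.21), was higher, where 10.4% of all genes were lower and 22.2% higher. The median difference of the members was -0.37, -0.03 and -0.47 at days 3, 5 and 7, while that of all genes was 0.17, 0.29 and 0.26. Isg15 was at 3.55, 18.9, 1.83, 0.416 and 0 FPKM at days 0, 1, 3, 5 and 7, so it was highest at day 1 and was listed at 0 at day 7. A 0 in this table does not show that the RNA was absent, since scRNA-seq of JGES cells at day 7 without BMP4 counted 576 Isg15 UMIs in 343 cells (4.68 CPM). Bst2 was at 30.1, 121, 57.1, 81.5 and 143 FPKM and did not return to its day 0 level. Over the same days the summed fibroblast markers were 1276, 302, 86.1, 57.4 and 78.5 FPKM and the summed pluripotency markers 0, 4.86, 35.1, 389 and 814 FPKM. PrE markers summed to 34.9, 11.3, 17.4, 34.6 and 66.6 FPKM, and the part of these cell types in the course of the members was not tested.

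A few members of JGES cells were higher with BMP4, and at which day this began depended on the settings. With a pseudocount of 0.1 FPKM, 5 of 38 members were higher and 3 lower at day 1, where 6.59% of all genes were higher and 8.92% lower. With a minimum of 5 FPKM, 1 of 10 was higher at day 3, where 5.47% of all genes were. As counted here, at day 1, none of 38 members was higher with BMP4 and 1, Dhx58 (-1.43), was lower, where 3.75% of all genes were higher and 5.72% lower. The next in size were Ifit3b (-0.98), Cxcl10 (0.94), Cmpk2 (0.86) and Oasl2 (-0.86). At day 3, 5 of 27 were higher and none lower, where 6.81% of all genes were higher and 8.99% lower, and these were Lgals3bp (1.44), Oasl1 (1.40), Cxcl10 (1.20), Ifit1 (1.06) and Irf7 (1.01). At day 5, 6 of 30 were higher, Irf7 (3.12), Isg15 (2.10), Ifi44 (1.96), Usp18 (1.75), Lgals3bp (1.58) and Ifit1 (1.23), and 2 were lower, Oas1a (-1.16) and Irf1 (-1.09), where 8.78% of all genes were higher and 13.2% lower. At day 7, 8 of 30 were higher, Isg15 (2.09), Rtp4 (1.58), Lgals3bp (1.32), Oasl2 (1.24), Isg20 (1.19), Ifi27l2a (1.06), Xaf1 (1.04) and Mx2 (1.01), and 1, Oas1g (-1.26), was lower, where 10.3% of all genes were higher and 13.8% lower. Many of these members reached 1 FPKM in one library alone, which fixes their direction, so it is no result about BMP4. With BMP4 alone this held for Oasl1, Cxcl10 and Ifit1 at day 3. It also held for Irf7, Isg15, Ifi44, Usp18 and Ifit1 at day 5, and for Isg15, Oasl2, Isg20 and Mx2 among others at day 7. Dhx58 at day 1 and Oas1g at day 7 reached it without BMP4 alone. The median difference of the members was 0.20, 0.22, 0.41 and 0.65 at days 1, 3, 5 and 7, while that of all genes was -0.02, -0.09, -0.18 and -0.14. Isg15 was at 24.1, 1.89, 5.08 and 3.25 FPKM with BMP4 against 18.9, 1.83, 0.416 and 0 FPKM without it. Lgals3bp, a secreted glycoprotein, was at 50.7, 45.1, 49.2 and 51.1 FPKM with BMP4 against 36.7, 15.9, 15.8 and 19.9 FPKM without it, so it stayed level in one condition and was lower from day 3 on in the other. With BMP4 the summed pluripotency markers were 1.75, 0.369, 1.78 and 28.3 FPKM and the summed fibroblast markers 371, 338, 550.1 and 987 FPKM at days 1, 3, 5 and 7. PrE markers summed to 12.2, 13.2, 28.3 and 222 FPKM with BMP4 at these days, and at day 7, 4 of 6 of them were higher with it, with a median of 1.44. The part of these cell types in the BMP4 difference was not tested.

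The 4 factor sets at day 7 put JGE and JGEO above JGESO and JGES. The median FPKM of the 43 members without and with BMP4 was 4.14 and 5.97 in JGE, 3.42 and 2.96 in JGEO, 0.854 and 1.10 in JGESO, and 0.883 and 1.94 in JGES. The sets without Sall4 thus lay above both sets with it, in either BMP4 condition. Of the 39 members at 1 FPKM or more in any of the 8 libraries, 13 were highest in JGE without BMP4, 11 in JGE with it and 10 in JGEO without it, against 3 in JGESO with BMP4, 2 in JGES with BMP4 and 0 in JGES without it. Of the 17641 genes at that level, 14.6%, 6.38%, 10.5%, 8.54%, 11.6% and 24.4% were highest in these libraries. Isg15 was at 18.2 and 43.0 FPKM in JGE without and with BMP4, 36.7 and 18.0 in JGEO, 6.22 and 3.06 in JGESO, and 0 and 3.18 in JGES. Irf7 was at 16.0 and 25.5 FPKM in JGE, 22.4 and 15.1 in JGEO, 4.47 and 4.58 in JGESO, and 1.34 and 3.02 in JGES. Ifit1 was at 11.1 and 12.1 FPKM in JGE, 2.50 and 2.69 in JGEO, 0.0767 and 0.207 in JGESO, and 0 and 0.910 in JGES. For each of these 3 genes every JGE and JGEO value was above every JGESO and JGES value, and this was so for 20 of the 39 members and for 10.1% of the 17641 genes. Unlike Isg15 and Irf7, Ifit1 was also higher in JGE than in JGEO in both BMP4 conditions.

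**Figure D3:**
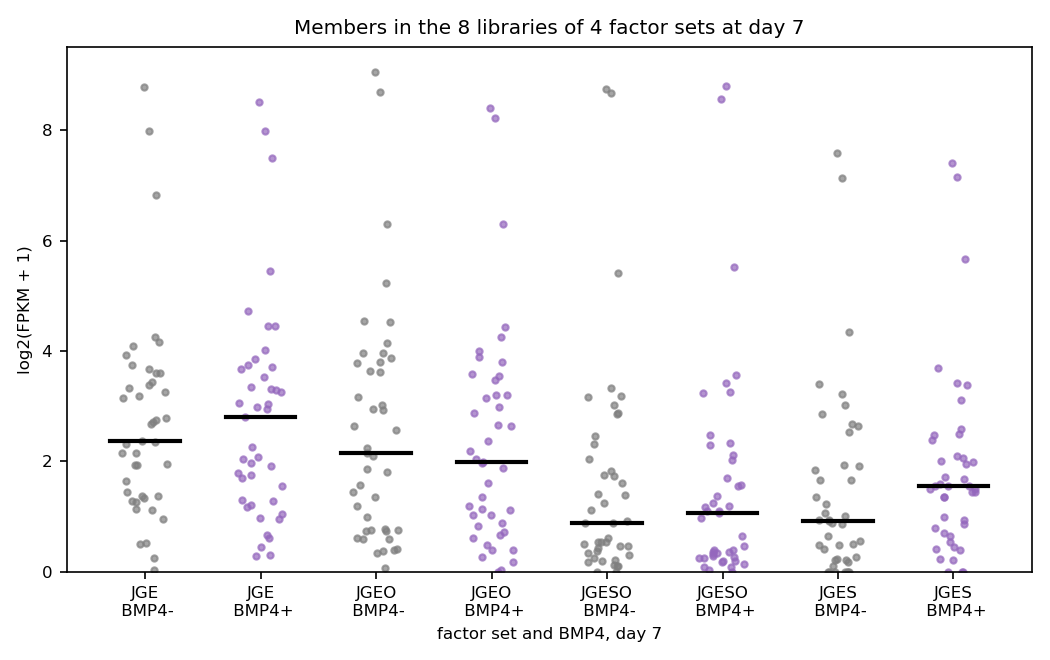
Level of the 43 members as log2(FPKM + 1) (y) in the 8 libraries of day 7 (x), 1 point per member, grey without BMP4 and purple with it, with the median as a bar. The medians of JGE and JGEO, at 2.96 to 5.97 FPKM, stand above those of JGESO and JGES, at 0.854 to 1.94 FPKM.

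With Sall4 added to JGE, without BMP4, 23 of 38 members were lower and none was higher, where 16.9% of all genes were lower and 20.1% higher, and the median difference was -1.18. The JGES libraries here are those of day 7 of the time course, while JGE, JGEO and JGESO were deposited as separate samples, so in each comparison of JGES with JGE or JGESO the factor and the set of libraries cannot be told apart. Isg15 (-4.26), Ifit1 (-3.59), Ifi27l2a (-3.10), Irf7 (-2.86), Oasl2 (-2.81), Ifi35 (-2.69), Lgals3bp (-2.48) and Rtp4 (-2.44) differed most. With Sall4 added to JGEO, 18 of 31 were lower and none higher, where 20.7% of all genes were lower and 7.48% higher, and the median was again -1.18, with -0.26 for all genes. Usp18 (-3.09), Isg15 (-2.38), Ifi27l2a (-2.26), Rtp4 (-2.23), Dtx3l (-2.14), Irf7 (-2.09), Oasl2 (-1.98) and Xaf1 (-1.75) differed most. These 2 comparisons share no library. In the BMP4 libraries, 20 of 37 members were lower with Sall4 added to JGE and none higher, where 11.1% of all genes were lower and 12.1% higher, with a median of -1.06. There Isg15 (-3.40), Ifit1 (-2.78), Irf7 (-2.72), Oasl1 (-2.45), Usp18 (-2.30) and Ifi35 (-2.16) differed most. With Sall4 added to JGEO under BMP4, 16 of 31 were lower and none higher, where 21.2% of all genes were lower and 7.77% higher, with a median of -1.22 for the members and -0.29 for all genes. There Isg15 (-2.22), Parp9 (-1.98), Usp18 (-1.78), Oas1g (-1.70), Oas1a (-1.69) and Ifi27l2a (-1.65) differed most. Bst2 did not follow in JGEO, at 414 and 299 FPKM there against 409.9 and 446 FPKM in JGESO.

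The summed macrophage markers were 183 and 125 FPKM in JGE, 98.5 and 102 in JGEO, 54.1 and 117 in JGESO, and 5.99 and 9.09 in JGES, without and with BMP4. They were lower with Sall4 in 3 of the 4 pairs, and Ptprc was at most 0.171 FPKM in all 8 libraries. Fibroblast markers summed to 715 and 322 FPKM in JGE and to 76.5 and 965 FPKM in JGES, and pluripotency markers to 0.239 and 0.0539 FPKM and to 794 and 27.7 FPKM. In JGEO and JGESO fibroblast markers summed to 418 and 254 FPKM and to 477 and 829 FPKM, and pluripotency markers to 242 and 427 FPKM and to 366 and 231 FPKM. PrE markers were higher with Sall4 in all 4 pairs, at 18.7 and 19.8 FPKM in JGE, 64.9 and 217 in JGES, 50.1 and 62.2 in JGEO, and 432 and 450.1 in JGESO. The part of these cell types in the Sall4 difference was not tested. Among the 30 pathway genes, 8 of 26 were lower with Sall4 added to JGE and none higher, where 16.9% of all genes were lower and 20.1% higher. With Sall4 added to JGEO 4 of 23 were lower and 2 higher, where 20.7% of all genes were lower and 7.48% higher, so the lower ones are no more than the share of all genes. Ifnb1, Ifna2, Ifna4 and Ifng were listed at 0 in all 8 libraries.

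With Oct4 added, members passed the threshold in both directions. With Oct4 added to JGE, 8 of 38 were lower and 2 higher, where 11.9% of all genes were lower and 10.2% higher, and the median was 0.11. Ifit2 (-2.37), Ifit1 (-1.78), Eif2ak2 (-1.75), Ifi44 (-1.63), Gbp3 (-1.20) and Ifit3 (-1.19) were lower, and Oas1g (1.71) and Oas1a (1.40) were higher. With Oct4 added to JGES, 11 of 26 were higher and 6 lower, where 16.8% of all genes were higher and 32.7% lower, and the median was 0.62, with -0.21 for all genes. Isg15 (2.85), Oasl1 (1.76), Bst2 (1.55) and Cxcl10 (1.41) were higher, and Eif2ak2 (-1.74), Parp9 (-1.72), Ifit2 (-1.44) and Gbp2 (-1.34) were lower. The 2 higher in JGE and the 6 lower in JGES are no more than the shares of all genes. These 2 counts are therefore no result about the members. Eif2ak2, the kinase PKR that stops translation on double-stranded RNA, and Ifit2 were lower with Oct4 in both backgrounds. Markers of cell types moved as well, with 6 of 6 pluripotency and 2 of 4 PrE markers higher with Oct4 added to JGE and 3 of 6 fibroblast and 2 of 7 macrophage markers lower. With Oct4 added to JGES, 5 of 6 macrophage, 4 of 6 fibroblast and 6 of 6 PrE markers were higher and 4 of 6 pluripotency markers lower, and their part in the difference was not tested. The JGE, JGEO, JGES and JGESO libraries of these comparisons are all shared with the Sall4 comparisons without BMP4.

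BMP4 left most members of the other factor sets within the threshold. In JGE 3 of 38 were higher, Rsad2 (1.20), Isg15 (1.20) and Rtp4 (1.01), and 1, Ifit2 (-1.25), was lower, where 4.28% of all genes were higher and 4.78% lower, and Gbp3 (-0.89) was next. In JGEO none of 31 was higher or lower, where 2.26% of all genes were higher and 1.95% lower, and the median was -0.29. The largest were Isg15 (-0.99), Isg20 (0.72), Ifi27l2a (-0.67), Ifitm3 (-0.66) and Oasl2 (-0.61). In JGESO none of 22 was higher or lower, where 5.29% of all genes were higher and 3.52% lower, and the median was 0.01. The largest were Oas1g (-0.87), Isg15 (-0.83), Usp18 (0.82), Oas1a (-0.75) and Oasl1 (-0.66). These counts are near the shares of all genes and are no result about the members.

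scRNA-seq of JGES cells at day 7 gave 11335 cells with BMP4, at a median of 21205 UMIs, and 8685 cells without it, at a median of 12738 UMIs, with 2 cell barcodes in both samples. Levels are CPM, the UMI counts of the summed cells scaled to a fixed total over the group of cells named. They carry exact Poisson intervals at 95% that cover counting error only. Cell types are those of the authors. Intermediate and placenta-like cells were not checked with a marker list of their own. Among the others, endothelial markers were at 658 and 305 CPM in endothelial cells, PrE markers at 2369.5 and 1298 CPM in PrE-like cells (PrECLCs), each with and without BMP4, and pluripotency markers at 7217 CPM in pluripotent cells. PrECLCs without BMP4 also had pluripotency markers at 872 CPM, against 22.0 CPM in those with BMP4, and endothelial cells without BMP4 had them at 288 CPM, against 2.83 CPM with BMP4. Their part in the BMP4 differences of these types was not tested. No doublet caller was run. With BMP4, 20 of 37 members were higher by 1 or more in log2 CPM and 2 lower, where 29.5% of all genes were higher and 8.70% lower. The median was 1.12, while that of all genes was 0.53, so the members should be read against this shift. Over all cells, fibroblast markers summed to 651 CPM with BMP4 and 87.1 CPM without it, and PrE markers to 628 and 75.7 CPM. Macrophage markers summed to 21.4 and 4.55 CPM, and endothelial markers were also higher with BMP4. Pluripotency markers went the other way and were lower with BMP4 than their 1975 CPM without it. The part of these cell types in the difference over all cells was not tested.

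Usp18 was at 5.49 CPM (5.21 to 5.77) with BMP4 and at 0.650 CPM (0.515 to 0.808) without it, a log2 difference of 3.08. Isg15 was at 25.5 CPM (24.9 to 26.1) and 4.68 CPM (4.30 to 5.07), a difference of 2.45. Samd9l (2.58), Ifit1 (2.46), Lgals3bp (2.41), Ifih1 (2.34), Irf7 (2.28) and Ifi44 (2.11) were the other large ones. These members were picked by size, so their place above the median of all genes (0.53) is no result. Zbp1, a sensor of Z-form nucleic acid, was at 0.761 and 2.05 CPM (-1.43), and Dhx58, a relative of RIG-I, at 0.527 and 1.34 CPM (-1.35). Usp18 and Ifi44 reached 1 CPM with BMP4 alone, and Zbp1 and Dhx58 without it alone, which fixes their direction. Ifitm3, the member with the most UMIs, was at 398 CPM (396 to 401) with BMP4 and 574 CPM (569.8 to 578) without it.

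Within intermediate cells, 25 of 37 members were higher with BMP4 and 2 lower, where 29.1% of all genes were higher and 8.19% lower, with medians of 1.18 for the members and 0.48 for all genes. Usp18 (3.71), Samd9l (2.90), Ifit1 (2.81), Isg15 (2.68), Irf7 (2.65) and Lgals3bp (2.63) led. Fibroblast markers summed to 983 CPM in these cells with BMP4 and to 115 CPM without it, and pluripotency markers to 7.64 and 300.3 CPM, and their part in the difference was not tested. Within endothelial cells, 9 of 31 were higher and none lower, where 24.4% of all genes were higher and 7.83% lower, with medians of 0.69 and 0.43. Samd9l (2.24), Parp14 (2.12), Oasl1 (1.95), Ifih1 (1.81) and Parp9 (1.55) led there. Within PrECLCs, 7 of 25 were higher and 2 lower, where 27.3% of all genes were higher and 9.87% lower, with medians of 0.40 and 0.48. The share in endothelial cells and PrECLCs is near that of all genes. The PrECLC sample without BMP4 holds only 142 cells, and Isg15 had 276 UMIs in PrECLCs with BMP4 (4.49 CPM, 3.98 to 5.06) and 1 UMI without it (0.529 CPM, 0.0134 to 2.95).

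Members were compared by the cell type in which each was highest. With BMP4, of 36 members at 1 CPM or more in a cell type, 16 were highest in intermediate cells, 16 in placenta-like cells, 4 in endothelial cells and none in PrECLCs. Of 13690 genes at 1 CPM or more in a cell type, 29.6% were highest in intermediate cells, 30.6% in placenta-like cells, 16.4% in endothelial cells and 23.4% in PrECLCs. Isg15 was at 42.6 CPM (39.0 to 46.5) in placenta-like cells, 36.4 CPM (35.5 to 37.4) in intermediate cells, 6.01 CPM (5.23 to 6.88) in endothelial cells and 4.49 CPM (3.98 to 5.06) in PrECLCs. The last 2 are the low types, and their intervals, which cover counting error only, do not overlap. This does not show that these types differ. Ifit1 was at 12.1 CPM (11.5 to 12.6) in intermediate cells and 4.46 CPM (3.34 to 5.84) in placenta-like cells, so the ratio of Isg15 to Ifit1 was not the same in these types. Rsad2 (viperin), which makes a nucleotide that stops viral polymerases, was highest in endothelial cells in both samples, at 29.4 CPM (27.7 to 31.3) with BMP4 and 16.7 CPM (14.1 to 19.7) without it. In intermediate cells Rsad2 was at 4.53 CPM (4.20 to 4.87) and 1.31 CPM (1.08 to 1.58). Macrophage markers summed to 81.6 and 18.5 CPM in endothelial cells, mostly Lyz2, and their part in the Rsad2 level was not tested. Without BMP4, of 33 members, 16 were highest in intermediate cells, 9 in endothelial cells, 5 in pluripotent cells and 3 in PrECLCs, against 23.1%, 17.4%, 29.7% and 29.9% of 13734 genes. With 1 sample per condition these differences were not tested. Pluripotent cells were the highest type for Ifitm3, at 678 CPM (669 to 687), and for Xaf1, at 52.4 CPM (49.9 to 55.1), while Ifit1 was at 0.236 CPM (0.0948 to 0.486) there.

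**Figure D4:**
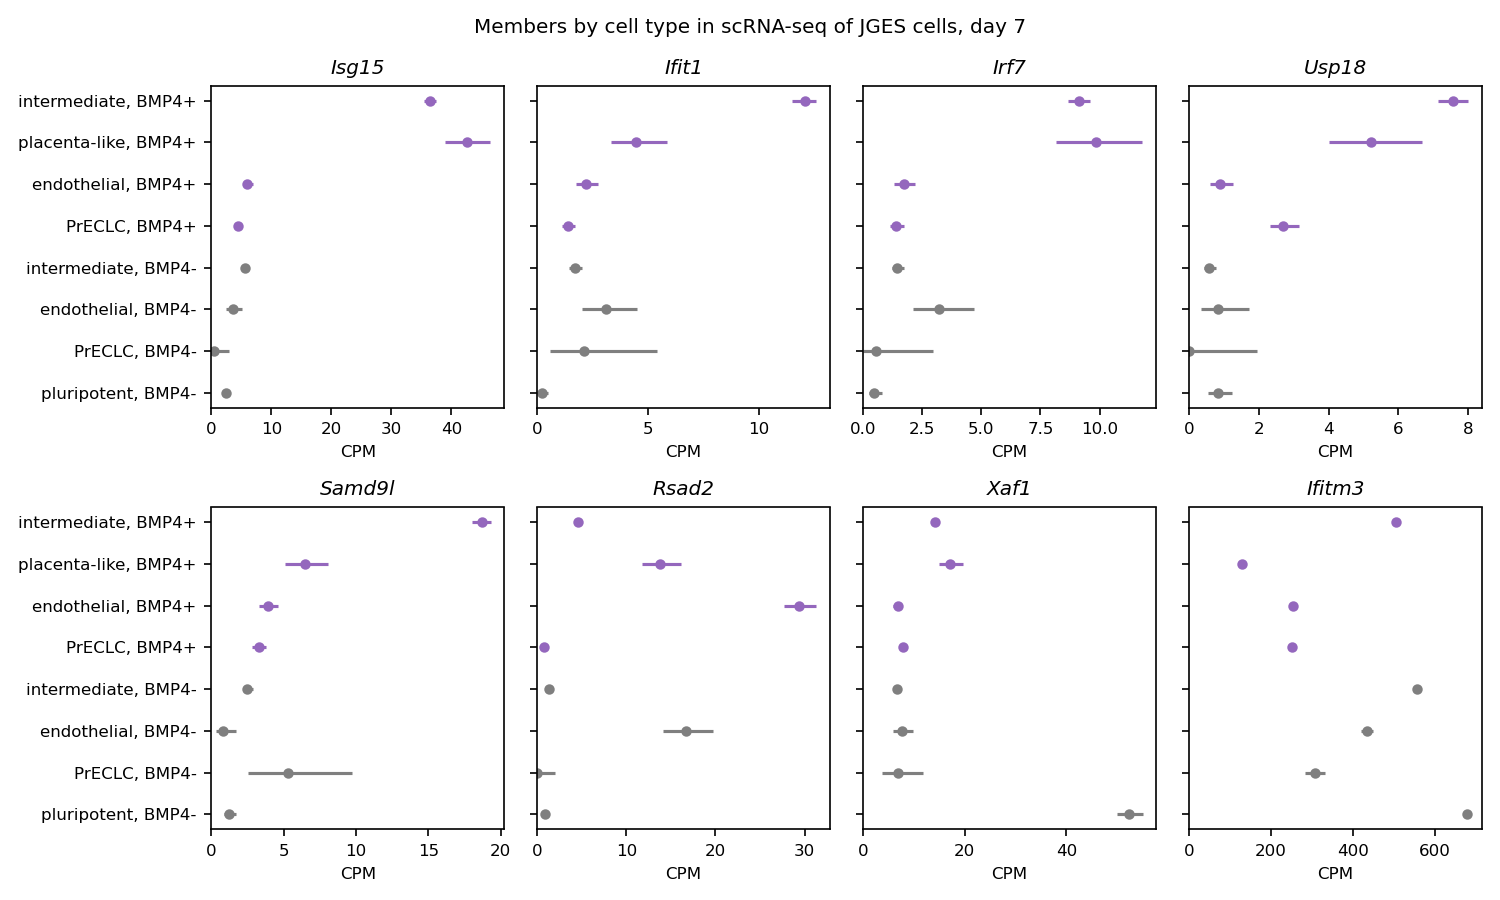
CPM (x, 1 linear scale per gene) of 8 members in the cell types (y) of the samples with BMP4 (purple) and without it (grey), with exact Poisson intervals at 95%. Ifit1, Usp18 and Samd9l stand out in intermediate cells with BMP4, Isg15 in intermediate and placenta-like cells with BMP4, Rsad2 in endothelial cells, and Xaf1 and Ifitm3 in pluripotent cells.

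How many cells had UMIs of members depended on depth and on which members were counted. Each cell was thinned to 4000 UMIs, since depth differed between the samples, and cells with at least 3 UMIs of members were counted. Over all members the share was 50.9% (49.9 to 51.8, exact binomial interval) with BMP4 and 56.1% (55.0 to 57.1) without it, and 95.4% and 92.4% without thinning. All members together were at 973 and 944 CPM, an order opposite to that of the thinned shares, so no order is read from them. Ifitm3 and Bst2 alone hold most of these UMIs, and without them the share was 15.3% (14.7 to 16.0) with BMP4 and 4.01% (3.60 to 4.44) without it, and 75.1% and 28.2% without thinning. The level without them was 337 and 152 CPM, the same order. By cell type this share was 21.6% (17.6 to 26.0) in placenta-like cells, 19.5% (18.6 to 20.4) in intermediate cells, 11.4% (9.83 to 13.2) in endothelial cells and 4.22% (3.44 to 5.10) in PrECLCs with BMP4. Without BMP4 it was 6.11% (4.19 to 8.57) in endothelial cells and 3.98% (3.50 to 4.49) in intermediate cells. In pluripotent cells it was 3.67% (2.86 to 4.64) and in PrECLCs 2.11% (0.438 to 6.05). The 1% of cells with the largest share of such UMIs, 113 cells with BMP4, held 10.1% of them. No cell type is known here to lack the members, so a background share from free RNA was not set.

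Several members were higher in cells that held an Isg15 UMI. Among intermediate cells with BMP4, the 1241 cells with an Isg15 UMI (median of 23125 UMIs) were set beside the 5884 cells without one (19070.5). Of 36 other members tested, 28 were higher by 1 or more in log2 CPM, all 36 were above 0 and none was lower, where 1.83% of all genes were higher, and the median difference was 1.58. Ifit1 was at 47.9 CPM (45.6 to 50.4) and 3.15 CPM (2.85 to 3.47), Cxcl10 at 16.6 CPM (15.2 to 18.1) and 1.22 CPM (1.03 to 1.42), and Rsad2 at 17.3 CPM (15.9 to 18.8) and 1.35 CPM (1.16 to 1.57). Trim25, at 45.5 CPM (43.2 to 47.9) and 39.4 CPM (38.3 to 40.5), and Irf1, at 11.7 CPM (10.6 to 13.0) and 8.34 CPM (7.85 to 8.85), differed little. Without BMP4, 294 cells with an Isg15 UMI were set beside 5917 without one. There 28 of 38 members were higher, 36 above 0 and none lower, with a median of 1.73, where 5.05% of all genes were higher. Irf1 was at 23.3 CPM (19.0 to 28.2) and 6.73 CPM (6.17 to 7.33) there, a wider gap than with BMP4. In either sample a member could pass the minimum of 1 CPM through the cells with an Isg15 UMI alone, which fixes its direction. Usp18, Ifit3 and Oasl1, at 0.577, 0.637 and 0.457 CPM over all intermediate cells without BMP4, could pass in no other way. The counts without BMP4 are therefore no result about the members. With BMP4 not all of the 36 members reached 1 CPM over all intermediate cells. That all 36 were above 0 is therefore no result either. Cells of 1 sample are not replicates, and the values describe these 2 samples. The ligand genes were not analysed in scRNA-seq.

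**Figure D5:**
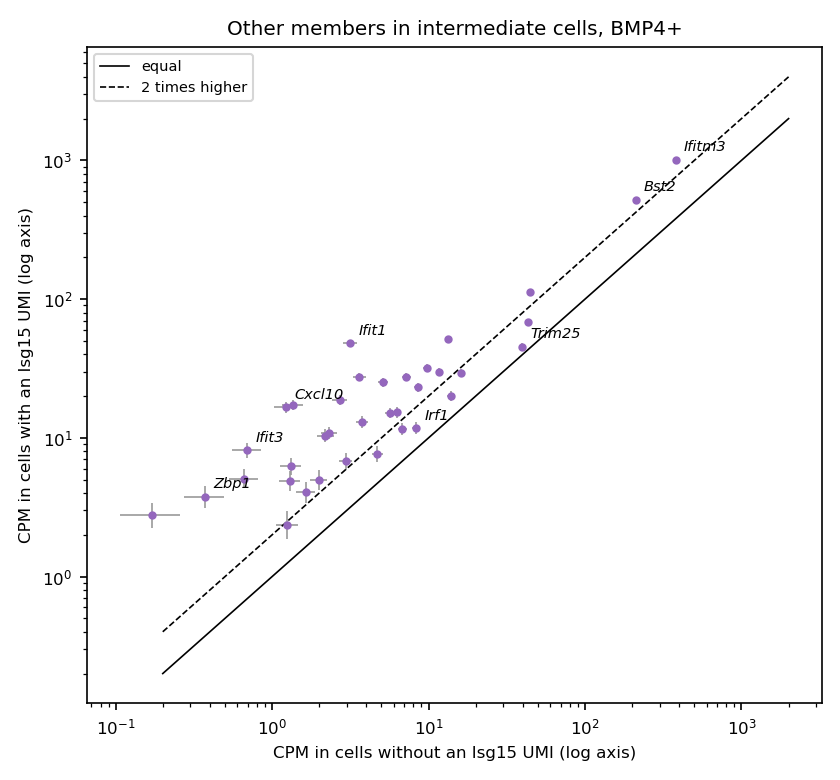
CPM of the other members in intermediate cells with BMP4 that have an Isg15 UMI (y, log axis) and in those that have none (x, log axis), 1 point per member with exact Poisson intervals at 95%, and lines for equal levels and for a level 2 times higher. All 36 members tested lie above the line of equality, with Ifit1, Ifit3 and Cxcl10 far above it and Trim25 near it. A member that passed the minimum of 1 CPM through the cells with an Isg15 UMI alone can lie nowhere else.

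Chromatin at the promoters was read from peaks within 2 kb of a start site of 42 members (Mx2 was not among the 21924 protein-coding genes used). In MEFs 36 of 42 members had an ATAC-seq peak there, against 68.6% of all genes. In SALL4-WT the number was 35, 35, 32 and 36 at days 1, 5, 9 and 11, against 62.5%, 66.6%, 66.0% and 66.4% of genes. In SALL4-delN12 it was 29, 30, 34 and 34, against 60.3%, 62.2%, 63.7% and 64.3% of genes. Members with a peak were fewer in SALL4-delN12 at days 1 and 5. At day 9 they were more, but with 500 bp to each side of the start site both forms had 29, against 61.6% of genes in SALL4-WT and 59.3% in SALL4-delN12. With peaks of a score of at least 100 the numbers were 27 and 25 at day 1, 29 and 27 at day 5 and 27 and 29 at day 9, SALL4-WT first. The shares of genes were then 54.0% and 53.0%, 61.5% and 54.3%, and 59.9% and 57.7%. In all 9 lists 26 of 42 members had a peak, as did 54.7% of genes, and 2, Ifi27l2a and Epsti1, had one in none, as did 26.6% of genes. Parp9 and Dtx3l share a promoter and so their peaks.

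The promoter of Isg15, whose window is printed above, had a peak score (MACS, rising as the p-value falls) of 412 in MEFs. It scored 85.9, 87.5 and 68.4 in SALL4-WT at days 1, 5 and 11 and 78.8 and 67.6 in SALL4-delN12 at days 9 and 11, with no peak listed at the other days. Ifit1 scored 164 in MEFs and 139, 196, 83.7 and 134 in SALL4-WT, and in SALL4-delN12 had a peak at day 11 alone, at 137. Irf7 scored 428 in MEFs, 405 in SALL4-WT and 92.1 in SALL4-delN12 at day 1, and Stat2 scored 860.4 and 868. The lists hold peaks with a score of at least 50, and a missing peak says only that none passed. At day 1, the SALL4-WT list had 83821 peaks and the SALL4-delN12 list 94828.

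At day 6, H3K27ac, a mark of active promoters and enhancers, had a peak at 28 members in SALL4-WT, against 49.5% of genes, and at 32 in SALL4-delN12, against 58.9%. SALL4 itself had a peak at 30 members (71.4%) in SALL4-WT, against 54.3% of genes, and at 18 (42.9%) in SALL4-delN12, against 40.8%. With 500 bp to each side of the start site the numbers were 28 (66.7%) and 15 (35.7%), against 49.5% and 35.8% of genes. At a peak score of at least 100 they were 19 (45.2%) and 13 (31.0%), against 40.9% and 27.7%. In SALL4-WT the members thus lie near all genes at this last setting only. The SALL4 peak of Isg15 scored 125 in SALL4-WT and none was listed in SALL4-delN12. Usp18 had a SALL4 peak of 138 in SALL4-WT and 113 in SALL4-delN12, and Ifit1 and Oasl2 had one in neither. The lists hold 69475 and 67310 SALL4 peaks and 19841 and 45599 H3K27ac peaks in SALL4-WT and SALL4-delN12, so the H3K27ac lists differ in size far more than the SALL4 lists.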

How the data were processed

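Bulk RNA-seq, scRNA-seq, ATAC-seq and CUT&Tag samples of mouse cells were used, 38 in all. Per the submitters' processing notes and the study's methods, reads were trimmed with Trim Galore (0.6.4) and mapped to mm10 with HISAT2 (2.2.1), and the authors deposited FPKM from StringTie (2.2.1) in tables of 17 and 8 libraries. FPKM sets reads against gene length and library size, and the read depth behind each value is not given in the sources used here. JGES at day 7 is in both tables, and its copies agree at a median ratio of 0.975 and 0.978. Factor sets were compared within the table of 8. The authors deposited the UMI count per gene and cell from STAR with their cell type labels (ParE was read as PrECLCs), how doublets were treated is not given in the sources used here, and 10749 columns of other samples were not used. Reads of ATAC-seq and CUT&Tag were mapped with Bowtie2 (2.4.5), and the deposited peak lists carry the score of MACS (1.4.2), with CUT&Tag replicates merged before calling.

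The members and all other gene lists were chosen with earlier results of these data known. Differences of log2(FPKM + 1) or of log2 CPM were computed with Python 3.11.15, numpy 2.4.6 and pandas 2.3.3, with a threshold of 1, a minimum of 1 FPKM or CPM in either sample, and no test, since each condition has 1 sample. The procedure was checked on simulated data. Intervals at 95% came from scipy 1.17.1. Members were named where they passed the threshold, at most the 8 largest per comparison, or the 5 largest where fewer than 5 passed. Genes most like the members were ranked by Pearson r across 17 libraries among genes reaching 5 FPKM in any of them. Promoter sequences came from RefSeq (GRCm38.p6) and gene positions from GENCODE vM21 on mm10.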

Additional observations from a re-analysis of the deposited data

Results flagged for a closer look

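The difference between the SALL4 forms had opposite signs at different days. The median difference of the members in log2(FPKM + 1), SALL4-delN12 minus SALL4-WT, was -2.01 at day 1 and -0.66 at day 5, and 0.72 at day 9. The median BMP4 difference was above 0 in one set and below 0 in another. It was 0.41 in JGES at day 5 and 0.65 in JGES at day 7, and -0.29 in JGEO at day 7, where no member passed the threshold, so the JGEO value is no result about the members. The days of the first of these BMP4 values and of JGEO are not the same, and JGES and JGEO at day 7 were compared from different tables. With 1 library per condition the difference was not tested in any of these cases.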

How the results depend on the processing

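Each comparison sets 1 sample against 1 at a single day, so it holds no replicates to pair. A fit over the days with the day as a block, which would take days as replicates, was not run. Of the recomputed results 118 kept their direction and size, 27 moved and 1 reversed, and the cause was not tested. With a pseudocount of 0.1 FPKM, the BMP4 difference of JGES at day 1 turned from 1 member lower to 5 higher and 3 lower of 38, where 6.59% of all genes were higher and 8.92% lower. That pseudocount also gave 14 of 30 members higher and 3 lower with BMP4 in JGES at day 7 (13.6% and 18.7% of all genes). With BMP4 in JGEO it gave 1 of 31 higher and 1 lower (5.61% and 3.48%). With BMP4 in JGESO it gave 1 of 22 higher and 2 lower (8.86% and 6.69%). It also gave 8 of 25 lower at JGES day 7 than at day 0 (13.0%). At SALL4-WT day 9, 6 of 39 were then lower than at day 5 (3.20%). With a minimum of 5 FPKM fewer members are tested. The members then higher with BMP4 in JGES were 1 of 10 at day 3 (5.47% of all genes), 3 of 15 at day 5 (8.04%) and 2 of 10 at day 7 (9.30%), and 0 of 21 were lower at day 1 (4.07%). With Sall4 added to JGE 12 of 21 were lower (17.3%), with Oct4 added to JGE 3 of 23 were lower (12%), and with Oct4 added to JGES 4 of 11 were higher (19.7%). Against day 0 of JGES 8 of 20 were higher at day 1 (10.4%), and 3 of 13, 2 of 14 and 3 of 12 were lower at days 3, 5 and 7 (10.7%, 10.8% and 11.1%). With libraries scaled to the same median ratio, 1 of 31 members was lower with BMP4 in JGEO (2.05%), 8 of 27 were lower at JGES day 7 than at day 0 (12.5%), and 0 of 39 were lower at SALL4-WT day 9 than at day 5 (1.35%). Between SALL4 forms the larger count of each day held within 1.5 times under each of these settings, while the smaller count moved at days 5, 9 and 11. With a pseudocount of 0.1 FPKM 3 of 40 were higher in SALL4-delN12 at day 11 (9.88%), and with a minimum of 5 FPKM 1 of 23 was higher at day 5 (4.38%) and 0 of 27 were lower at day 9 (6.24%). In scRNA-seq 9 members were higher with BMP4 in endothelial cells alone (24.4%) and 7 in PrECLCs alone (27.3%). The share of cells with member UMIs was 95.4% and 92.4% without thinning, and 15.3% and 4.01% without Ifitm3 and Bst2. At a peak score of at least 100, 19 of 42 members (45.2%) had a SALL4 peak in SALL4-WT and 40.9% of genes, so at this setting the members lie near all genes. The changes between consecutive days, Sall4 added under BMP4, the cells with an Isg15 UMI, and the settings without Ifitm3 and Bst2, by cell type, without the top 1% of cells and without SALL4-WT day 1 (6 of 10 genes most alike kept) were chosen after seeing the data. Depth behind FPKM is unknown, so low values carry an unknown error.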
